A study of Mus musculus with 30 samples.

Results

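OX40 (the product of Tnfrsf4) and its ligand (the product of Tnfsf4) were followed as a pair through 30 arrays of mouse spleen lymphocytes. Every probe set whose RefSeq accession belongs to either gene was taken, which gave 3 probe sets of 752 on the array and 2 genes of 374 that could be named. Tnfrsf4 has 1 probe set, NM_011659_at. Tnfsf4 has 2, and the brighter one over all arrays, NM_009452_s_at, stands for the gene, with the dimmer one, NM_009452_at, given as a second reading. The suffix of the brighter set marks probes that can match more than 1 transcript. No measured change enters this rule, and the brighter probe set was taken by its mean level alone. The 2 genes themselves were chosen with earlier results of these data known.

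OX40 is a costimulatory receptor of the TNF receptor family that T cells display after their antigen receptor has been engaged. Its ligand is a membrane protein of the TNF family, best known from activated dendritic cells and B cells and also described on activated T cells. Binding of the ligand recruits TRAF adaptors to the receptor tail and activates NF-kappaB, which supports the survival and expansion of effector T cells and their passage into memory.

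The spleens were those of C57Bl/6 males, 6 to 10 weeks old, and the cells made up 10 groups of 3 arrays, named by cell type and culture in the array titles. B cells were cultured with anti-IgM (10 ug/ml), which binds the B-cell receptor, and IL-4 (10 ng/ml), or taken fresh. CD8 T cells, the cytotoxic lineage, and CD4 T cells, the helper lineage, were each taken fresh or kept in 1 of 3 cultures. All 3 held IL-2 at 4 ng/ml, 1 of them with IL-12 added at 5 ng/ml and another with IL-4 added at 10 ng/ml. The study asked how activation changes lymphocytes, and the array is a custom Affymetrix design centred on glycan-related genes, so it holds only part of the OX40 pathway. Whether the T cells received a stimulus besides these cytokines is not given in the sources used here. Descriptions of the T-cell arrays also name B cells, and each array was treated as the cell type in its title.

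Array medians of the deposited signal ran from 116.9 to 205.7, and correlations of log2 signal between arrays of a group from 0.841 to 0.937. The CD4 fresh array C1 stood apart in RNA quality. Its ratio of 3′ to 5′ control signal was 7.62 for Actb and 4.97 for Gapdh, against 0.876 to 1.62 for Actb and 0.746 to 1.62 for Gapdh on the other 29 arrays. The experiment files of the CD8 IL-2/IL-4 array C4 and the CD8 IL-2/IL-12 array D4 carry each other's code, so the CD8 results that rest on them are also given without both. Few cell type markers are on the array. Cd22, Fcer2a, Cxcr5 and Cd72, the 4 of 10 B-cell markers measured, summed to 8702.6 to 14946 on activated B arrays and 20353 to 25171 on fresh B arrays, above the 364.4 to 3190.8 of all T-cell arrays. Itgae, the 1 CD8 marker of 3 that was measured, lay at 1980.8 to 3165.4 on CD8 fresh arrays and 346.5 to 537.4 on CD4 fresh arrays. In culture it did not mark CD8 cells, with 197.4 to 373.7 on CD8 arrays and 186.6 to 369.7 on CD4 arrays. Cd40lg, the 1 CD4 marker of 2 that was measured, lay at 305 to 474.7 on CD4 fresh arrays and 30.9 to 316.7 on CD8 fresh arrays. In culture it did not mark CD4 cells, with 54 to 332.4 on CD4 arrays, 32.8 to 320.6 on CD8 arrays and 212.3 to 251.1 on activated B arrays. Cd2, the 1 T-cell marker of 9 that was measured, was at 718.6 to 3003.2 on B arrays and 1939.5 to 12720 on T-cell arrays. No marker was at 0 on any array. All samples are bulk RNA, so a change in the share of a cell type and a change in RNA per cell cannot be told apart.

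Both genes rose in every T-cell culture. Tnfrsf4 rose 18.6-fold to 36.9-fold and Tnfsf4 4.61-fold to 11.7-fold over the 6 comparisons of a culture with fresh cells of the same lineage. None of the 12 comparisons had a cultured array that reached into the range of the fresh arrays. Fold changes here are differences of mean log2(signal + 16), a scale that understates the change of dim probe sets, and the error of each log2 change was 0.51 (SE) for Tnfrsf4 and 0.43 for Tnfsf4.

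Tnfrsf4, the receptor, had signals of 6558.8, 6373.4 and 5736.3 in CD8 cells cultured with IL-2/IL-12. With IL-2/IL-4 it had 4095.6, 7704.3 and 7005.5, and with IL-2 alone 7220, 6841.6 and 5931.7. Fresh CD8 cells had 285.5, 92.5 and 163.6. The 9 cultured CD8 arrays thus overlapped with each other across the 3 cultures, and the highest fresh CD8 array was far below the lowest of them. On the log2 scale Tnfrsf4 rose by 5.11 with IL-2/IL-12 (limma adjusted p = 3.3e-08), by 5.07 with IL-2/IL-4 (adjusted p = 4.0e-08) and by 5.21 with IL-2 (adjusted p = 3.5e-08). Over all 746 probe sets tested, 7.1%, 8.58% and 7.37% passed as higher in these 3 comparisons, and in 30.4%, 31.6% and 27.9% the arrays did not overlap. Among the changes of all probe sets from the highest down, Tnfrsf4 ranked 6, 5 and 3.

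In CD4 cells cultured with IL-2/IL-12, Tnfrsf4 had 15110.1, 11367.8 and 9734. With IL-2/IL-4 it had 10584.7, 12404.3 and 14962.9, and with IL-2 alone 14697.7, 13811.1 and 14696.8. Fresh CD4 cells had 1172.5 and 972.4 on arrays A1 and B1 and 206.1 on array C1, the array with the high 3′ to 5′ ratios. The cultured arrays again stood clear of all fresh ones, and array C1 was the lowest of all CD4 arrays. Tnfrsf4 rose by 4.22 with IL-2/IL-12 (limma adjusted p = 1.4e-06), by 4.29 with IL-2/IL-4 (adjusted p = 5.9e-07) and by 4.50 with IL-2 (adjusted p = 4.8e-07). The shares of all probe sets that passed as higher were 8.18%, 9.79% and 7.91%, and in 29.6%, 34.5% and 30.6% the arrays did not overlap. Tnfrsf4 ranked 5, 5 and 4 among all changes. Without array C1 the same 3 changes were 3.45, 3.53 and 3.73, and with the control 3′ to 5′ ratio as a covariate 2.89, 3.05 and 3.18, and all of these passed. With the scan day as a block they were 4.83, 5.10 and 5.11. No scan day holds both fresh and cultured CD4 arrays, so that fit compares them only through arrays of other groups.

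Tnfsf4, the ligand, had signals of 651, 547.7 and 643.5 in CD8 cells with IL-2/IL-12. With IL-2/IL-4 it had 1093, 680 and 685.1, and with IL-2 alone 927.2, 838.6 and 511.3. Fresh CD8 cells had 135.1, 52.3 and 229.8. Every cultured CD8 array was above the highest fresh one. The ligand rose by 2.20 on the log2 scale with IL-2/IL-12 (limma adjusted p = 0.000554), by 2.58 with IL-2/IL-4 (adjusted p = 7.5e-05) and by 2.46 with IL-2 (adjusted p = 0.000126), and ranked 20, 16 and 21 among all changes.

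In CD4 cells Tnfsf4 had 1549.2, 1058.2 and 969.8 with IL-2/IL-12. With IL-2/IL-4 it had 1635.4, 1678.4 and 1082, and with IL-2 alone 1228.2, 1113.7 and 1153.1. Fresh CD4 cells had 61, 208.6 and 93.8. Every fresh array was below every cultured one, and array C1 was the middle of the 3 for the ligand. Tnfsf4 rose by 3.26 with IL-2/IL-12 (limma adjusted p = 5.4e-06), by 3.55 with IL-2/IL-4 (adjusted p = 8.9e-07) and by 3.25 with IL-2 (adjusted p = 4.8e-06), ranking 8, 7 and 8. With the scan day as a block, again with no shared day, the IL-2/IL-4 change in CD4 cells was 2.82 and no longer passed (adjusted p = 0.0711).

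**Figure D1:**
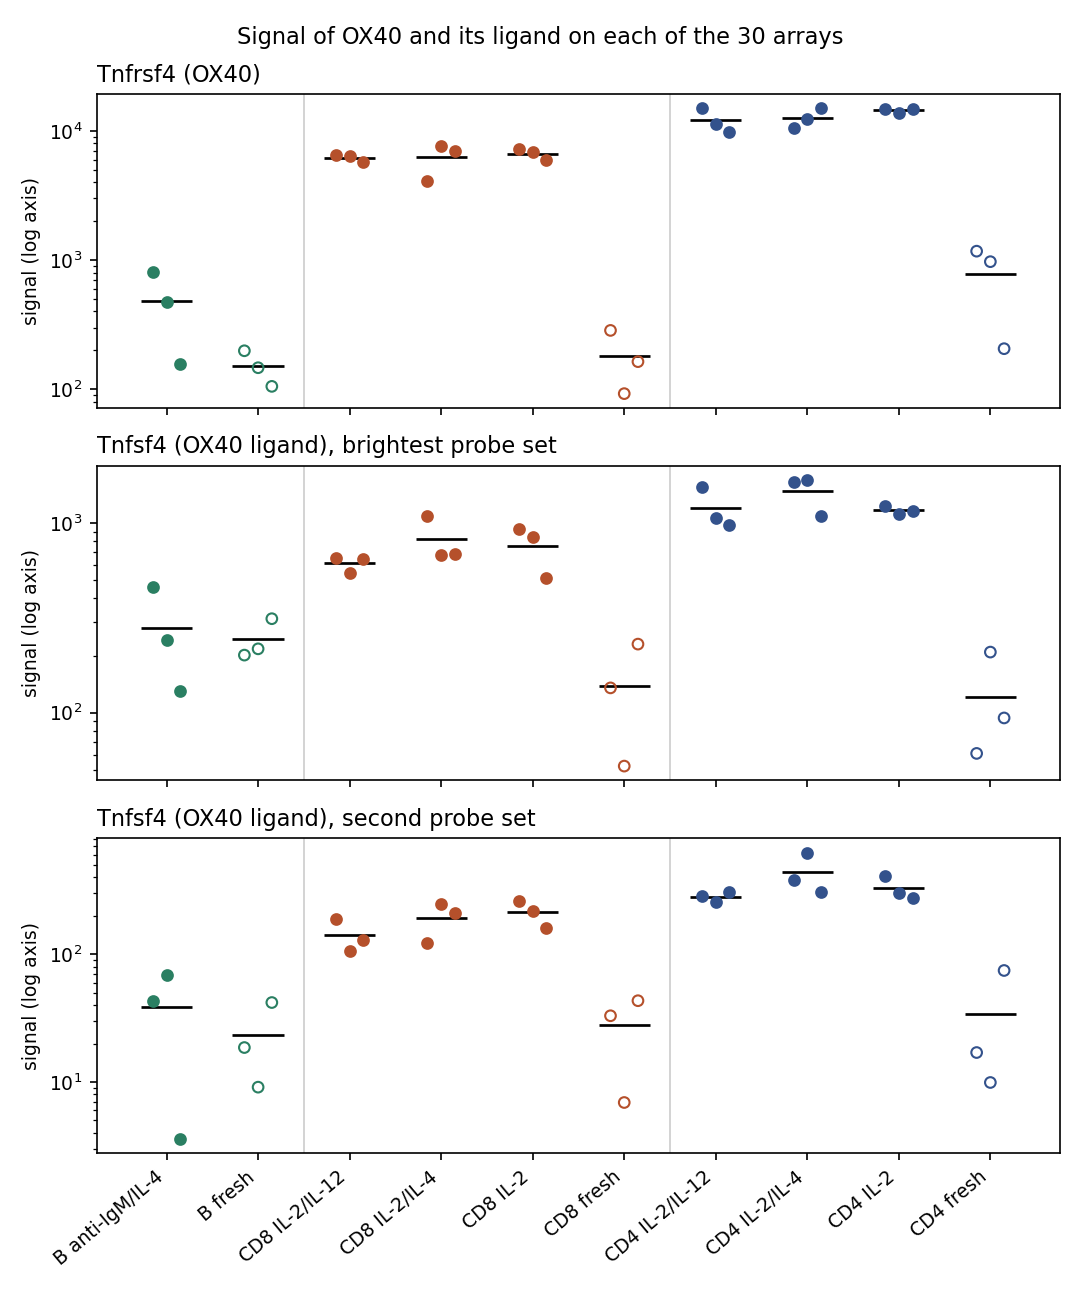
Signal of Tnfrsf4 (top) and of the brightest (middle) and second (bottom) Tnfsf4 probe set on a log axis, one point per array (filled for cultured, open for fresh), with a bar at the mean of each group of 3. Cultured T-cell arrays lie at 4095.6 to 15110.1 for Tnfrsf4 and at 511.3 to 1678.4 for the brightest Tnfsf4 probe set, above fresh T-cell arrays at 92.5 to 1172.5 and 52.3 to 229.8.

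The second Tnfsf4 probe set moved the same way. It had signals of 105.9 to 625.4 on the 18 cultured T-cell arrays, against 6.9 to 74.7 on the 6 fresh ones. Its log2 changes were 1.92, 2.32 and 2.48 in CD8 cells and 2.80, 3.35 and 3.01 in CD4 cells (IL-2/IL-12, IL-2/IL-4 and IL-2). All 6 passed, beside the shares of all probe sets given above for Tnfrsf4 in the same comparisons. Fresh-cell signals this low are not shown to be above background, since no detection call was used, so its fold changes may be compressed.

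The median change over all probe sets was -0.19 to -0.085 in the 6 comparisons of a T-cell culture with fresh cells. With each array centred on its own median, Tnfrsf4 rose by 5.27 to 5.42 in CD8 cells and 4.51 to 4.72 in CD4 cells, and Tnfsf4 by 2.36 to 2.79 and 3.48 to 3.98. Centring also turned the balance of all calls: higher ones were 60.6% to 71.3% of the calls, against 45.8% to 52.1% with the values as deposited. Without the 2 arrays of exchanged code, Tnfrsf4 rose by 5.07 with IL-2/IL-12 and 4.96 with IL-2/IL-4 in CD8 cells, and Tnfsf4 by 2.16 and 2.69, and all 4 passed. Within single scan periods, where the arrays allow it, CD8 cells gave 5.56 (IL-2/IL-12), 3.77 and 5.72 (IL-2/IL-4) and 5.66 (IL-2) for Tnfrsf4 and 2.36, 2.88, 2.43 and 2.79 for Tnfsf4. CD4 cells with IL-2/IL-4 gave 3.27 and 4.44 within the first period, and the other 2 CD4 cultures share no period with fresh CD4 cells.

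Markers of other cells and the quality ratio moved with culture. The 4 B-cell markers summed to 364.4 to 1074.7 on cultured T-cell arrays, against 1236.8 to 3190.8 on fresh ones. The 4 of 11 dendritic and myeloid markers measured (Itgax, Siglec1, Siglece and Cd33) summed to 148.2 to 630.4 on cultured arrays and 770.6 to 2777.4 on fresh ones. Pf4, Vcam1, Tek and Itga2b, which are 4 of 7 markers of platelets, endothelium and stroma, summed to 114.4 to 419.4 and 1797.5 to 5198.7. All 3 sums were thus lower on cultured arrays, though not every marker in them. Siglec1 and Cd33 averaged 189.73 and 133.53 in CD4 cells with IL-2, against 147.67 and 52.97 in fresh CD4 cells. Itgax was at 15.5 to 130.6 on cultured and 465.2 to 2217.1 on fresh T-cell arrays. Vcam1 made up most of the last sum in fresh cells, averaging 1768.9 in CD8 and 3344.6 in CD4 cells, against 75.2 to 167.83 in the cultures. Tek averaged 52.17 in CD8 cells with IL-2, against 42.5 in fresh CD8 cells. Itga2b averaged 41.03 in CD8 cells with IL-2/IL-4, against 29.1 in fresh CD8 cells. Klrd1 averaged 5381.7 to 7272.7 in CD8 cultures, against 4851.9 in fresh CD8 cells, and 300.63 to 1133.3 in CD4 cultures, against 1019.1 in fresh CD4 cells. Cd2 averaged 8437.9 to 10227 in CD4 cultures, against 5276.1 in fresh CD4 cells, and 4075.6 to 4719.9 in CD8 cultures, against 5126.5 in fresh CD8 cells. The Gapdh 3′ to 5′ ratio was 0.746 to 1.04 on cultured T-cell arrays and 1.04 to 4.97 on fresh ones. The part of these shifts in the size of the changes was not tested beyond the covariate fit given above.

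**Figure D2:**
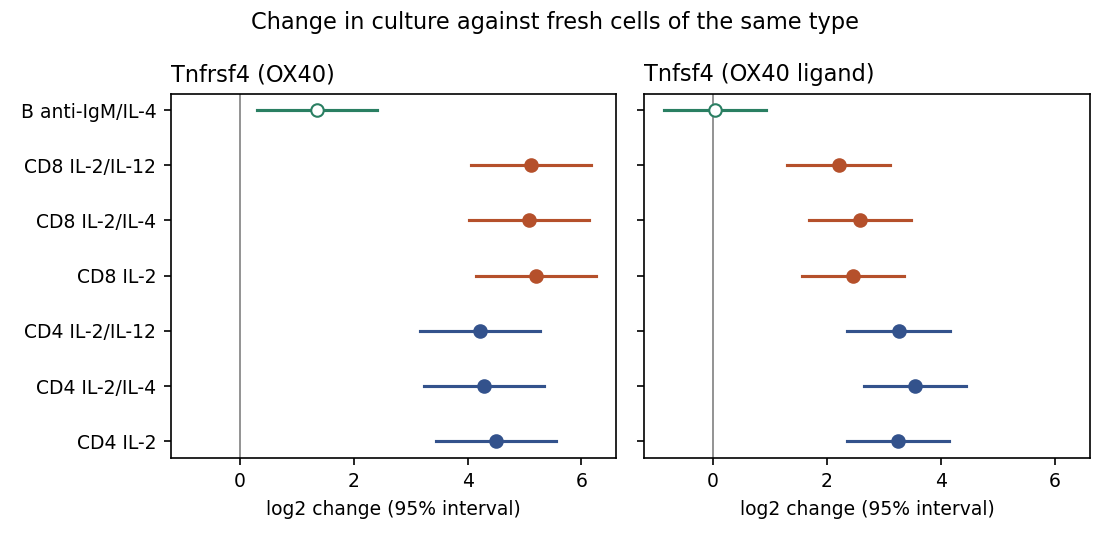
Log2 change of Tnfrsf4 (left) and Tnfsf4 (right) in each culture against fresh cells of the same type, with 95% confidence intervals from limma; filled points passed an adjusted p of 0.05. The 6 T-cell changes are 4.22 to 5.21 for the receptor and 2.20 to 3.55 for the ligand, and the open B-cell points are 1.35 and 0.04.

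By mean log2 signal, Tnfrsf4 was highest in CD4 cells with IL-2, followed by CD4 with IL-2/IL-4, CD4 with IL-2/IL-12, CD8 with IL-2, CD8 with IL-2/IL-12, CD8 with IL-2/IL-4, CD4 fresh, activated B, CD8 fresh and B fresh. Of the 9 steps between neighbours in this order, 1 passed, from CD8 IL-2/IL-4 down to CD4 fresh (log2 difference 3.25, limma adjusted p = 3.0e-05). Tnfsf4 was highest in CD4 with IL-2/IL-4, followed by CD4 with IL-2/IL-12, CD4 with IL-2, CD8 with IL-2/IL-4, CD8 with IL-2, CD8 with IL-2/IL-12, activated B, B fresh, CD8 fresh and CD4 fresh. Again 1 step passed, from CD8 IL-2/IL-12 down to activated B (1.26, limma adjusted p = 0.0393). Both orders place the 3 CD4 cultures above the 3 CD8 cultures and all 6 above every fresh or B-cell group. The steps were set by the order of these same means, and neither step that passed is among the 25 comparisons listed below. Their calls restate the gap between cultured T cells and the other groups and add no separate support.

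Adding IL-4 or IL-12 to IL-2 gave no call for either gene. The 12 log2 differences (IL-2/IL-12 against IL-2/IL-4, and each against IL-2 alone, in both lineages) were -0.28 to 0.04 for Tnfrsf4 and -0.38 to 0.30 for Tnfsf4, with limma adjusted p of 0.908 and above. Their 95% intervals lay within -1.33 to 1.2 and are not adjusted over probe sets. With 3 arrays a group, differences of that size or somewhat larger in either direction could thus have gone without a call. Few probe sets of any kind passed here, with 0.268% in CD8 cells for IL-12 against IL-2 alone, 0.0% for IL-4 against IL-2 alone and 0.536% for IL-12 against IL-4, and 0.134%, 0.804% and 1.34% in CD4 cells. The arrays of Tnfsf4 in CD8 cells with IL-2/IL-12 lay below those with IL-2/IL-4 (-0.38, limma adjusted p = 0.990), and the other 11 comparisons overlapped. With the groups of the 2 arrays of exchanged code exchanged, the ranges overlapped and the difference was -0.33. With both left out, the remaining arrays still did not overlap (547.7 and 643.5 with IL-2/IL-12, 1093 and 680 with IL-2/IL-4). Without both arrays the CD8 differences were -0.24 to 0.11 for Tnfrsf4 and -0.53 to 0.22 for Tnfsf4, with them exchanged -0.17 to 0.10 and -0.33 to 0.09, and none passed. Over all probe sets the arrays did not overlap in 12.2%, 9.52% and 16.8% in CD8 cells and 11.1%, 17.8% and 21.8% in CD4 cells, in the same order. The IL-4 effect did not differ detectably between lineages, with a CD8 minus CD4 difference of 0.07 for Tnfrsf4 and -0.18 for Tnfsf4, nor did the IL-12 effect, at 0.18 and -0.26. The limma adjusted p of these 4 differences was 0.988 to 0.995, and 0.402% of probe sets passed for IL-4 and 0.0% for IL-12.

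Between the lineages, both genes were lower in CD8 than in CD4 cultures when the 3 cultures were averaged. Tnfrsf4 averaged 6385.2 ± 1056.5 on the 9 cultured CD8 arrays and 13041 ± 2068.5 on the 9 cultured CD4 arrays (SD). The CD8 range of 4095.6 to 7704.3 did not meet the CD4 range of 9734 to 15110.1. Tnfsf4 averaged 730.82 ± 187.67 on CD8 arrays and 1274.2 ± 271.17 on CD4 arrays, and its ranges of 511.3 to 1093 and 969.8 to 1678.4 overlapped.

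In single cultures the lineage difference of Tnfrsf4 was -0.93 with IL-2/IL-12, -1.05 with IL-2/IL-4 and -1.11 with IL-2 on the log2 scale (CD8 minus CD4), and none passed (limma adjusted p = 0.516, 0.374 and 0.339). For Tnfsf4 it was -0.91, -0.84 and -0.65 (limma adjusted p = 0.432, 0.433 and 0.593). In 5 of these 6 comparisons the CD8 arrays lay wholly below the CD4 arrays, the exception being Tnfsf4 with IL-2/IL-4. Over all probe sets 21.8%, 22.3% and 23.6% did not overlap and 2.82%, 3.89% and 3.22% passed. Within the second scan period the 3 CD8 cultures gave -0.997, -1.02 and -1.02 for Tnfrsf4 and -0.96, -0.65 and -0.40 for Tnfsf4. Without both arrays of exchanged code the values with IL-2/IL-12 and IL-2/IL-4 were -0.97 and -1.15 for Tnfrsf4 and -0.96 and -0.73 for Tnfsf4, and with them exchanged -0.90 and -1.08, and -0.89 and -0.86. None of these passed.

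The mean of the 3 lineage differences was added after the data were seen. It was -1.03 ± 0.29 (SE) for Tnfrsf4, 2.04-fold lower in CD8 cells with a 95% interval of -1.64 to -0.42 (limma adjusted p = 0.0220). For Tnfsf4 it was -0.80 ± 0.25, 1.74-fold lower with an interval of -1.32 to -0.28 (limma adjusted p = 0.0434). Of all probe sets 6.3% passed as lower in CD8 cells, and in 2.28% all 9 CD8 arrays lay below all 9 CD4 arrays. An exact permutation test over arrays within each culture gave a two-sided p of 0.00025 for Tnfrsf4 and 0.0005 for Tnfsf4. The first is the smallest that the 8000 regroupings allow, and was fixed there because Tnfrsf4 arrays did not overlap in any culture. The second lies near that floor, and Tnfsf4 arrays did not overlap in 2 of the 3 cultures, as given above. Neither p thus adds separate support, and neither is adjusted over probe sets. The second Tnfsf4 probe set gave -0.89 (limma adjusted p = 0.0454).

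This lineage difference was sensitive to single arrays and to scaling. The call of Tnfrsf4 was lost without the CD4 IL-2/IL-12 array D3 (-0.97, limma adjusted p = 0.0523) and without the CD8 IL-2/IL-4 array A4 (-0.94, adjusted p = 0.0574), and with median centring (-0.96, adjusted p = 0.0699), quantile normalization (-0.94) and the scan period as a block (-0.83). The call of Tnfsf4 was lost in 14 of the 18 fits that left out 1 array, with values of -0.87 to -0.71, without both arrays of exchanged code (-0.78, adjusted p = 0.109), with median centring (-0.73), a pseudocount of 1 (-0.81), the scan period (-0.81) and the scan day (-0.62). The T-cell marker Cd2 moved with the lineage, at 3578.9 to 5304.3 on cultured CD8 arrays and 6725.4 to 12720 on cultured CD4 arrays. Klrd1, the 1 NK-cell marker of 5 that was measured, was at 4908.3 to 9521.9 on cultured CD8 arrays and 287.4 to 1805.6 on cultured CD4 arrays. It followed the lineage in fresh cells too, at 3734.8 to 5672.3 on CD8 and 827.2 to 1267.4 on CD4 arrays. The 4 B-cell markers summed to 364.4 to 677.1 on cultured CD8 arrays and 554.9 to 1074.7 on cultured CD4 arrays. The part of these markers in the result was not tested.

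**Figure D3:**
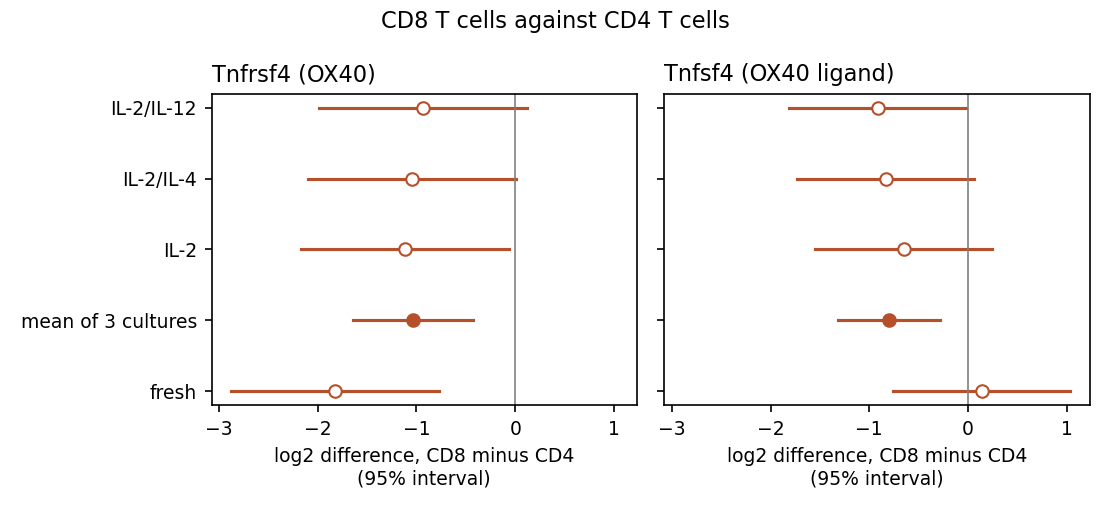
Log2 difference of CD8 minus CD4 T cells for Tnfrsf4 (left) and Tnfsf4 (right) in each culture, as the mean of the 3 cultures and in fresh cells, with 95% confidence intervals from limma; filled points passed an adjusted p of 0.05. The means of the 3 cultures are -1.03 and -0.80, and the fresh differences are -1.82 and 0.14.

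In fresh cells Tnfrsf4 averaged 180.53 ± 97.6 in CD8 cells and 783.67 ± 510.1 in CD4 cells (SD, n = 3). The log2 difference of -1.82 (95% interval -2.88 to -0.77) was 3.54-fold but did not pass (limma adjusted p = 0.0599, in a comparison where 1.61% of probe sets passed). The highest CD8 array, A3 at 285.5, was above CD4 array C1 at 206.1, so the groups overlapped, while 13.3% of all probe sets did not. Without C1 the difference was -2.59 and passed (limma adjusted p = 0.00396), and with the control ratio as a covariate it was -2.60 (adjusted p = 0.00276). It was smaller without CD4 array A1 (-1.38, adjusted p = 0.214), without CD8 array B3 (-1.46, adjusted p = 0.368) and with the scan day as a block, though these groups share no day (-1.32, adjusted p = 0.507). In all it passed in 6 of 20 fits, and within the first scan period, with no test, it was -1.98. Tnfsf4 did not show this pattern, with a difference of 0.14 (adjusted p = 0.960) and overlapping arrays. The culture change itself did not differ detectably between the lineages. The CD8 minus CD4 difference of the mean culture change was 0.79 ± 0.59 (SE) for Tnfrsf4 (limma adjusted p = 0.659) and -0.94 ± 0.50 for Tnfsf4 (adjusted p = 0.431), with 4.02% of probe sets called. Without array C1 the Tnfrsf4 value was 1.56 (adjusted p = 0.155), and over all fits it ranged from 0.18 with the scan day as a block to 1.60 with the covariate, none of which passed. For Tnfsf4 the range was -1.44 to -0.29, again with no call.

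In B cells neither gene passed a test of its change in culture. Tnfrsf4 had 807, 477.6 and 155.9 in activated B cells (anti-IgM/IL-4), against 198.6, 146.8 and 105.3 in fresh B cells. Arrays G2 and H2 were above all fresh B arrays, and K2 lay among them. The log2 change of 1.35 (95% interval 0.29 to 2.40) was 2.54-fold and did not pass (limma adjusted p = 0.103), in a comparison where 3.35% of probe sets passed as higher and 6.43% as lower and 22.0% did not overlap. Without K2 the change was 1.98 and passed (adjusted p = 0.0117), and with the scan period as a block it was 1.35 and passed (adjusted p = 0.0401). Within each of the 3 scan periods that hold 1 array of each kind the change was 1.94, 1.6 and 0.50.

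Tnfsf4 had 461.1, 242.6 and 130.6 in activated B cells and 201.1, 217 and 312.8 in fresh B cells. The activated arrays lay on both sides of the fresh ones. Its change was 0.04 (95% interval -0.86 to 0.94, limma adjusted p = 0.968). The second probe set gave 0.32 (adjusted p = 0.843), from 42.7, 69 and 3.6 in activated B cells and a fresh range of 9.1 to 41.9.

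Activated B cells were far below T cells cultured with IL-4. For Tnfrsf4 the log2 difference was -3.88 from CD8 cells with IL-2/IL-4, 14.7-fold lower (limma adjusted p = 2.7e-06), and -4.93 from CD4 cells with IL-2/IL-4, 30.5-fold lower (adjusted p = 5.6e-08). For Tnfsf4 it was -1.63, 3.10-fold lower (adjusted p = 0.00700), and -2.47, 5.54-fold lower (adjusted p = 0.000124). The arrays did not overlap in any of the 4 comparisons, while 34.7% and 33.5% of all probe sets did not, and 10.2% and 10.1% passed as lower. The B and T cultures share IL-4 and differ in the other stimulus, so cell type and stimulus cannot be told apart. Within the first scan period the differences from CD8 and CD4 cells were -2.32 and -3.80 for Tnfrsf4 and -1.22 and -1.81 for Tnfsf4.

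Array K2, the lowest of the activated B arrays, set part of these sizes. Without it the Tnfrsf4 differences were -3.25 from CD8 and -4.30 from CD4 cells, and both passed, while the Tnfsf4 difference from CD8 cells was -1.21 and did not (limma adjusted p = 0.0699). With the scan day as a block the Tnfsf4 differences were -1.16 from CD8 (adjusted p = 0.418) and -1.74 from CD4 cells (adjusted p = 0.294), while Tnfrsf4 was -5.74 from CD4 cells and passed. Activated B arrays share no scan day with either T-cell group. The second Tnfsf4 probe set gave -2.13 from CD8 and -3.24 from CD4 cells, and both passed. Without both arrays of exchanged code the differences from CD8 cells were -3.77 and -1.74, and both passed.

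Among fresh cells, Tnfrsf4 was lower in B than in CD4 cells by 1.98 on the log2 scale, 3.95-fold (limma adjusted p = 0.0150), with no overlap of arrays, where 3.89% of probe sets passed as lower and 17.8% did not overlap. That call was lost without CD4 array A1 (-1.53, adjusted p = 0.107), without CD4 array B1 (-1.67, adjusted p = 0.0931) and without B array K1 (-1.77, adjusted p = 0.0773), while without C1 the value was -2.74 and with the control ratio as a covariate -2.86, and both passed. Within the first, the third and the fifth scan period it was -2.47, -2.60 and -0.87. Fresh B and fresh CD8 cells differed by -0.16 for Tnfrsf4 (adjusted p = 0.963). For Tnfsf4 fresh B cells gave 0.90 over CD8 (adjusted p = 0.267) and 1.04 over CD4 cells (adjusted p = 0.198), and neither passed, beside 8.18% and 6.7% of all probe sets. The second probe set put these at -0.13 and -0.21.

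The response to culture itself differed between B and T cells. The change in B cells with anti-IgM and IL-4 minus the mean change of CD8 and CD4 cells with IL-2/IL-4 was -3.34 ± 0.63 (SE) for Tnfrsf4 (limma adjusted p = 0.000767) and -3.03 ± 0.53 for Tnfsf4 (adjusted p = 0.000451), where 5.63% of probe sets passed as lower. With median centring the calls over all probe sets leaned further that way, with 16.9% of them higher, against 40.8% as deposited. Tnfrsf4 gave -2.70 without array K2 and -4.01 with the scan day as a block. The second Tnfsf4 probe set gave -2.52 (adjusted p = 0.00769).

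The rest of the TNF family was on the array only in part, and most of it did not pass in T-cell culture. Of 22 other receptors listed 9 were measured. Tnfrsf18, which encodes the costimulatory receptor GITR and is the next protein-coding gene after Tnfrsf4 on the RefSeq map of GRCm38.p6, rose in all 6 T-cell cultures, by 2.27 to 2.54 on the log2 scale in CD8 cells and 2.59 to 3.03 in CD4 cells (SE 0.44, limma adjusted p of 1.2e-05 to 0.000461). Its signal averaged 1129.5 to 1342.7 in CD8 cultures and 1425.6 to 1975.9 in CD4 cultures, against 218.37 in fresh CD8 and 267.53 in fresh CD4 cells. Tnfrsf8, the receptor CD30, rose in CD8 cells with IL-2/IL-12 (3.20) and IL-2/IL-4 (2.42) against a low mean signal of 14.3 in fresh CD8 cells. The other 7 receptors passed in no T-cell culture. Among them were Fas, the death receptor, at 0.33 to 0.68, and Tnfrsf19 at -0.01 to 0.90. Ltbr, the lymphotoxin beta receptor, and Tnfrsf11b, the decoy receptor osteoprotegerin, were at -1.41 to 0.06 and -1.24 to -0.19. In B cells Ltbr fell by 1.61 (limma adjusted p = 0.0336), where 6.43% of all probe sets passed as lower, and no receptor rose. The median change of the 9 receptors was -0.45 to 0.49 over the 6 T-cell cultures, beside -0.19 to -0.085 for all probe sets.

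Ligands moved in both directions. Of 17 other ligands listed 10 were measured, and their median change was -0.17 to 0.47. Tnfsf8, the CD30 ligand, rose by 2.97 to 3.51 in CD4 cells and in 2 of 3 CD8 cultures (1.63 and 2.01), with 0.89 in the third (limma adjusted p = 0.0607). Fasl, which encodes the death ligand, rose by 1.99 to 2.14 in CD8 cells and had changes of 0.15 to 0.58 in CD4 cells, none of which passed. Lta, lymphotoxin alpha, rose by 1.90 to 3.22 in CD8 cells and in 1 of 3 CD4 cultures (2.27 with IL-2/IL-4). Of all probe sets 7.51%, 9.52% and 8.71% passed as lower in CD8 cells (IL-2/IL-12, IL-2/IL-4 and IL-2) and 7.51%, 11.4% and 9.25% in CD4 cells. Ltb, lymphotoxin beta, fell in 5 of 6 T-cell cultures, with changes of -2.08 to -1.49 in CD8 and -0.83 to -0.66 in CD4 cells. Tnfsf11, also called RANKL, rose in CD8 cells with IL-2/IL-4 (1.85). In CD4 cells with IL-2/IL-4, Cd40lg, the CD40 ligand, fell by 2.0, and Tnfsf13b, the B-cell survival factor BAFF, fell by 1.61 (1 of 3 CD4 cultures each). Tnfsf13b was named for this call after its values were seen.

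In B cells 4 of the 10 ligands passed, beside 3.35% of all probe sets that passed as higher and 6.43% as lower. Ltb fell by 3.46 (limma adjusted p = 5.3e-10) and Lta fell by 2.22 (adjusted p = 0.000842), while Tnfsf8 rose by 1.03 (adjusted p = 0.0374). Cd70, the CD27 ligand, rose by 2.66 (adjusted p = 0.00121), and was picked out for its B-cell change after its values were seen. In CD8 against CD4 cultures, Ltb (-0.95, adjusted p = 3.7e-05) and Tnfsf8 (-1.62, adjusted p = 4.1e-07) were lower in the mean of the 3 cultures, and no family receptor of the list passed.

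**Figure D4:**
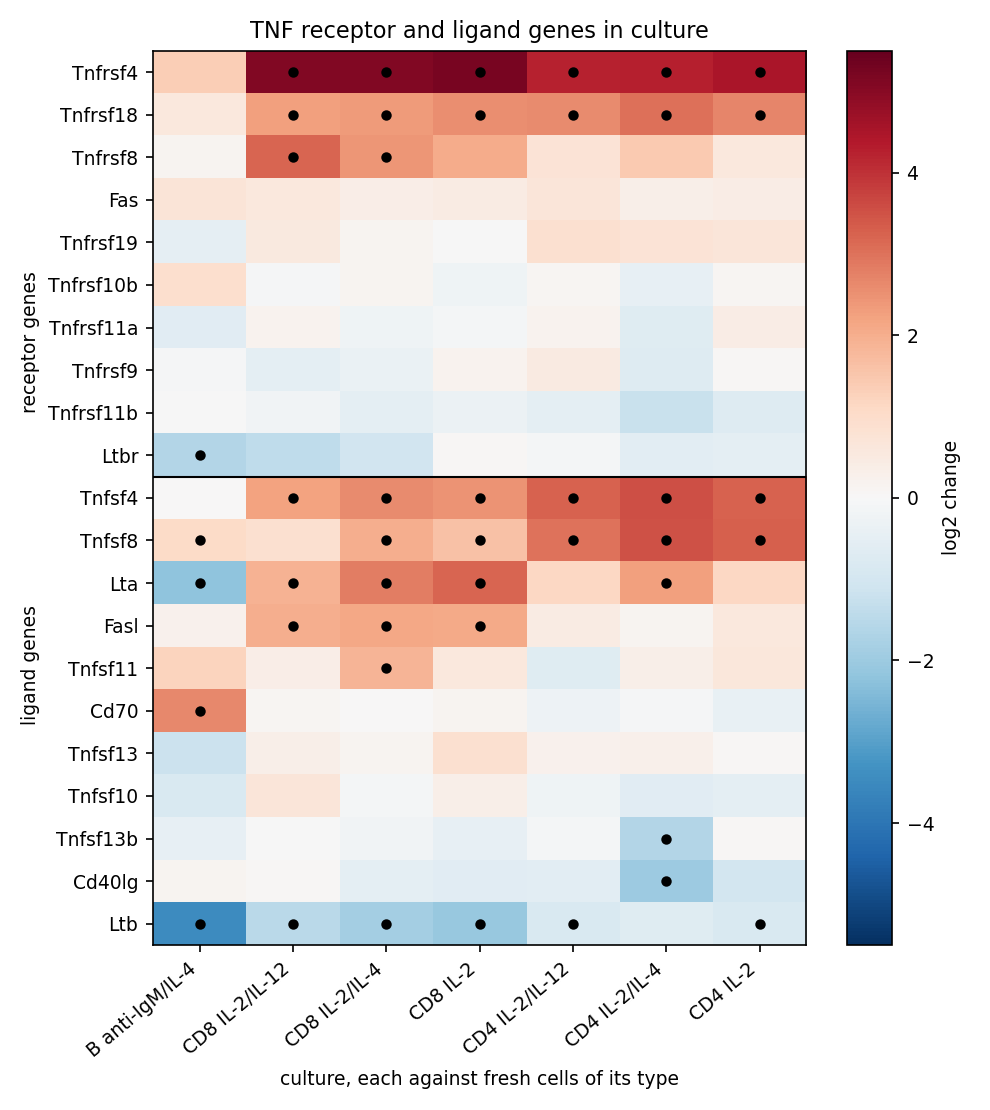
Log2 change of the measured TNF receptor genes (upper block) and ligand genes (lower block) in 7 cultures, each against fresh cells of its type; colour runs from blue (lower) to red (higher) and a dot marks an adjusted p under 0.05 from limma. Tnfrsf4, Tnfsf4 and Tnfrsf18 carry a dot in all 6 T-cell cultures and in no B-cell culture.

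Of 21 adaptors and survival genes downstream of OX40 and 11 genes of the CD28 and B7 families, 0 could be named on the array. Of 14 cytokine and cytokine receptor genes linked to OX40 costimulation 9 were measured, with a median change of 0.19 to 1.32 over the T-cell cultures. Il12rb1 and Il12rb2, the chains of the IL-12 receptor, rose in all 6, by 4.98 to 5.69 and 3.34 to 5.18. Il10, an inhibitory cytokine, rose in 5 of 6 (changes of 0.91 to 3.24). Il4, the cytokine of type 2 help, rose in the 3 CD4 cultures, by 1.66 with IL-2/IL-12, 5.35 with IL-2/IL-4 and 2.32 with IL-2. In CD8 cells its changes were 0.05, 1.18 and 0.89 in the same order and none passed (limma adjusted p = 0.977, 0.0672 and 0.210). The difference of its changes between lineages is not given here. In the mean of 3 cultures Il4 was lower in CD8 than in CD4 cells (-3.29, limma adjusted p = 7.8e-10). In that mean 3 of the 9 genes passed as higher in CD8 cells and 3 as lower, beside 25 and 47 of all 746 probe sets. Il7r, the IL-7 receptor of resting T cells, fell in 3 of 6 (-1.82 to -0.47), and Il2rb, a chain of the IL-2 receptor, rose in 1 of 6 (1.65 in CD8 with IL-2/IL-12). In B cells 1 of the 9 genes passed, Il12rb1 at 1.82 (limma adjusted p = 0.0219), beside 3.35% of all probe sets that passed as higher and 6.43% as lower. All 67 calls of list genes kept their direction with median centring and with quantile normalization.

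Across the 10 group means, the 5 genes of 253 with the highest Pearson correlation with Tnfrsf4 were Il12rb1 (0.987), Tnfrsf18 (0.983), Tnfsf8 (0.925), its own ligand gene Tnfsf4 (0.921) and Fasl (0.912). For Tnfsf4 they were Tnfrsf18 (0.944), Aldoa (0.937), Il12rb1 (0.930), Psmc1 (0.930) and Tnfrsf4 (0.921). Aldoa encodes a glycolytic enzyme and Psmc1 a proteasome subunit. By this measure receptor and ligand each fell among the 5 genes most like the other. Each group's mean comes from the same 3 arrays for every gene, and for both genes the 6 cultured T-cell groups lie above the other 4, so the coefficients largely reflect that gap. By rank correlation the pair left each other's first 5, with Tnfsf4 at place 7 for Tnfrsf4 and Tnfrsf4 at place 9 for Tnfsf4. Fasl was then at place 27 for Tnfrsf4, and Il12rb1 and Tnfrsf18 at places 2 and 1. With median centring Tnfsf4 was at place 5 for Tnfrsf4 and Tnfrsf4 at place 6 for Tnfsf4.

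**Figure D5:**
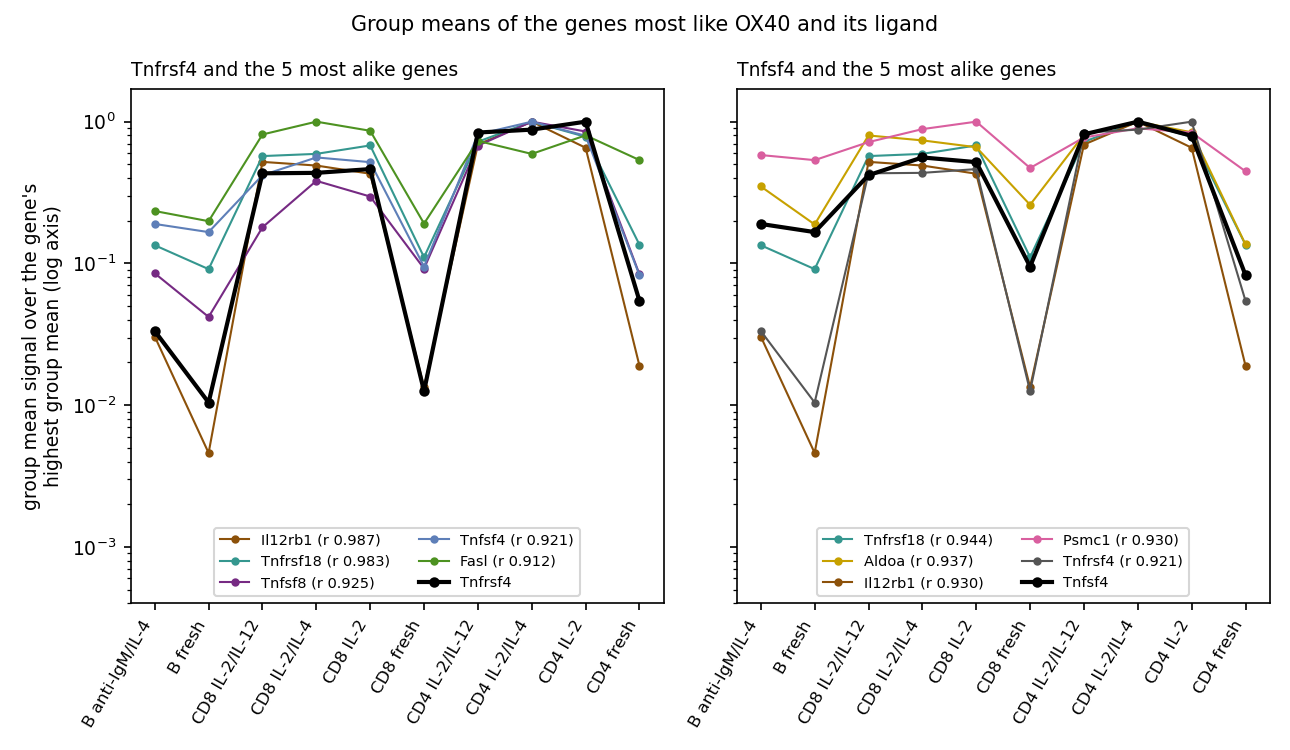
Group mean signal over each gene's own highest group mean, on a log axis, for Tnfrsf4 (left, thick black line) and Tnfsf4 (right, thick black line) with the 5 genes of highest Pearson correlation over the 10 group means. The lines of Il12rb1 and Tnfrsf4 lie close together in fresh CD8 cells and activated B cells, and on the right Psmc1 has the flattest line.

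The RefSeq promoter window of Tnfrsf4 on GRCm38.p6, 300 bases that end 50 after the gene's start, overlaps the neighbouring gene Sdf4 over 166 bases. On either strand it held no match to AP-1 (TGANTCA, found in 7.93% of 27025 windows), to the STAT motif (TTCNNNGAA, in 8.47%), to its form with 4 bases between TTC and GAA (in 6.99%) or to the kappaB site (8.18%). It held 1 NFAT core (GGAAA), which lies in the overlap with Sdf4 and which 61.3% of windows also hold. These are letter matches in 1 window and say nothing of binding.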

How the data were processed

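The authors deposited a linear signal intensity for each probe set on each array. Not given in the sources used here are the probe summary, background correction and scaling. The other deposited files hold text fields of the scanner software, which gave scan day, chip lot and an array code; apart from these they hold no measurement. Of 752 probe sets 6 controls were left out and 746 tested. Names came from a RefSeq table of GRCm38.p6: 462 probe sets carry such an accession and 449 of them matched 1 gene, and 297 tested probe sets stayed unnamed.

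Signals were taken as log2(signal + 16), and limma 3.58.1 under R 4.3.3 fitted a model of 10 group means (lmFit, then eBayes), which left 20 residual degrees of freedom from 30 arrays. Tests were two-sided with Benjamini-Hochberg adjustment over 746 probe sets, and a change passed at an adjusted p under 0.05. Groups came from the array titles. The labels do not state whether the 3 arrays in a group are separate mice, cultures or preparations. A p-value therefore reflects the spread between arrays alone, possibly technical, and precision is limited by 3 arrays a group. The procedure was tested on simulated data. The 25 comparisons were 7 of culture against fresh, 6 between cytokines, 4 of CD8 against CD4, 4 of B against T cells and 4 differences of effects. Steps between groups neighbouring in mean level were set by the observed order and are not counted here.

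The members and gene lists were chosen with earlier results of these data known. Genes most alike were the 5 named genes of highest Pearson correlation over 10 group means. Only genes whose highest group mean log2 signal exceeded the median over all tested probe sets were searched. Up to 6 members of a list, those of largest mean culture effect, were named with values, with Tnfsf13b and Cd70 as exceptions. Alternatives were pseudocounts of 1 and 64, median centring, quantile normalization, leaving out the dimmest 40%, the other Tnfsf4 probe set, only the groups compared, the title letter, scan period or scan day as a block, a 3′ to 5′ covariate, and leaving out each array. Scan days (9) were joined into 5 scan periods with gaps of at most 40 days. Fresh CD4 arrays share no scan day with CD4 cultures or fresh CD8 arrays. Nor do activated B arrays share a day with T cells cultured with IL-4. A scan-day fit compares such groups only through arrays of other groups. What the letter in the titles marks is not given, and the main fit did not pair arrays by it. Where 2 groups share all letters, deviations from group means correlated at -0.111 to 0.358 between same-letter arrays. The highest values were those of fresh CD8 against CD4 cells, 0.358 for letter C and 0.197 for letter A. The B-cell groups do not share all letters and were not examined in this way. Removing or exchanging the 2 arrays of exchanged code, and the mean of the 3 lineage differences, were added after the data were seen. The headers of 4 arrays name 72 hours. They are CD4 IL-2/IL-4 arrays A2 and B2, CD8 IL-2/IL-4 array A4 and activated B array G2. No array with IL-2 alone or IL-2/IL-12 is among them, so equal culture times are not shown for the comparisons between cytokines.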

Additional observations from a re-analysis of the deposited data

Results flagged for a closer look

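Both genes responded to culture differently in B and T cells by a test of the difference itself. The change in B cells with anti-IgM and IL-4 minus the mean change of CD8 and CD4 cells with IL-2/IL-4 was -3.34 on the log2 scale for Tnfrsf4 (SE 0.63, limma adjusted p = 0.000767) and -3.03 for Tnfsf4 (SE 0.53, adjusted p = 0.000451). The B-cell changes were 1.35 and 0.04, against 5.07 and 2.58 in CD8 cells and 4.29 and 3.55 in CD4 cells. Both differences passed in every fit run, the reported one included, 31 of 31 for Tnfrsf4 and 32 of 32 for Tnfsf4. The stimuli differed between B and T cells, so cell type and stimulus cannot be told apart.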

How the results depend on the processing

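All 12 culture changes of T cells kept their direction under every alternative and passed in every tested fit but 1, Tnfsf4 in CD4 cells with IL-2/IL-4 with scan day as a block (2.82). In CD4 cells the scan-day fits compare cultured and fresh arrays only through other groups, since no day holds both. Apart from single left-out arrays and single scan periods, 28 values turned direction, all of differences that had not passed. Adjusted p is from limma, the unit is log2, and the cause of each move was not tested.

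Directions turned as follows. Median centring gave 0.0046 for Tnfrsf4 in CD4 cells with IL-2/IL-4 against IL-2, -0.018 for Tnfrsf4 in CD8 cells with IL-2/IL-12 against IL-2/IL-4 and -0.14 for its IL-4 effect in CD8 minus CD4. Quantile normalization gave -0.096 for Tnfsf4 in activated against fresh B cells and -0.042 for Tnfsf4 in CD4 cells with IL-2/IL-12 against IL-2. For Tnfrsf4 it gave 0.055 and -0.050 with IL-2/IL-12 against IL-2/IL-4 in CD4 and CD8 cells, and -0.065 and -0.17 for the IL-4 and IL-12 effects in CD8 minus CD4. The other Tnfsf4 probe set gave -0.21 in CD4 cells with IL-2/IL-12 against IL-2, -0.16 in CD8 cells with IL-2/IL-4 against IL-2, -0.073 in fresh CD8 against CD4 cells, and -0.21 and -0.13 in fresh B against CD4 and CD8 cells. With the scan period as a block, Tnfrsf4 gave 0.20 in CD4 cells with IL-2/IL-12 against IL-2/IL-4, 0.16 in fresh B against CD8 cells and -0.081 for the IL-4 effect, and Tnfsf4 -0.022 in CD8 cells with IL-2/IL-4 against IL-2. With the scan day as a block, Tnfsf4 gave -0.12 in activated against fresh B cells, -0.17 in CD4 and -0.21 in CD8 cells with IL-2/IL-4 against IL-2, 0.18 in CD4 and 0.018 in CD8 cells with IL-2/IL-12 against IL-2/IL-4, and -0.33 in fresh CD8 against CD4 cells. Tnfrsf4 then gave -0.32 and -0.016 for the IL-4 and IL-12 effects. Its IL-4 effect was -0.072 with the 3′ to 5′ covariate and -0.040 without the 2 arrays of exchanged code.

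Calls were lost in 13 values. Fitting only the groups compared ended those of Tnfrsf4 in fresh B against CD4 cells (-1.98, adjusted p = 0.249) and of Tnfsf4 in activated B against CD8 cells with IL-4 (-1.63, adjusted p = 0.0605). The scan day block ended those of Tnfsf4 in activated B against CD4 (-1.74) and CD8 cells (-1.16). For the mean of 3 cultures in CD8 against CD4 cells, the call of Tnfrsf4 was lost with median centring (-0.96), quantile normalization (-0.94) and the scan period (-0.83). That of Tnfsf4 was lost with a pseudocount of 1 (-0.81), median centring (-0.73), the scan period (-0.81), the scan day (-0.62) and without the arrays of exchanged code (-0.78). Calls were gained in 5. Tnfrsf4 in fresh CD8 against CD4 cells passed without the dimmest 40% (-1.82), with the title letter as a random block (-1.82, adjusted p = 0.0444), with the scan period (-2.14) and with the covariate (-2.60), and Tnfrsf4 in activated against fresh B cells with the scan period (1.35).

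Within single scan periods values rest on 1 or a few arrays and have no test. In the first period CD4 cells with IL-2/IL-4 against fresh gave 3.27 for Tnfrsf4 and 4.44 for Tnfsf4, and CD8 cells 3.77 for Tnfrsf4. Tnfsf4 gave 1.14 in activated against fresh B cells and 0.97 in fresh CD8 against CD4 cells. Activated B against CD4 cells with IL-4 gave -3.80 and -1.81, and against CD8 cells -2.32 for Tnfrsf4. In the third period Tnfsf4 gave 0.053 in fresh B against CD4 cells. In the fifth, activated against fresh B cells gave 0.50 for Tnfrsf4 and -1.17 for Tnfsf4, Tnfsf4 0.32 in CD8 cells with IL-2/IL-12 against IL-2, and Tnfrsf4 -0.87 in fresh B against CD4 cells.

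Leaving out 1 array gave these ranges where a direction or a call moved. For Tnfrsf4 they were 0.85 to 1.98 in activated against fresh B cells, -0.25 to 0.065 and -0.24 to 0.21 with IL-2/IL-12 against IL-2/IL-4 in CD4 and CD8 cells, and -0.31 to 0.15 in CD8 cells with IL-2/IL-4 against IL-2. They were -2.59 to -1.38 in fresh CD8 against CD4 cells, -2.74 to -1.53 and -0.52 to 0.21 in fresh B against CD4 and CD8 cells, -0.11 to 0.35 for the IL-4 effect, and -1.09 to -0.94 for the mean of 3 cultures. For Tnfsf4 they were -0.39 to 0.46 in activated against fresh B cells, -0.20 to 0.14 in CD4 cells with IL-2/IL-12 against IL-2 and -0.14 to 0.28 in CD8 cells with IL-2/IL-4 against IL-2. They were -0.29 to 0.64 in fresh CD8 against CD4 cells, -2.07 to -1.21 in activated B against CD8 cells with IL-4, and -0.87 to -0.71 for the mean of 3 cultures.

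The title letter as a random block changed the 1 call named above, with a block correlation of 0.0822. As a fixed replicate block, possible where groups share letters, it changed none, and fresh CD8 against CD4 cells gave -1.82 for Tnfrsf4 (adjusted p = 0.0746).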
